A study of Mus musculus with 8 samples.

Results

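The genes of de novo lipogenesis were followed site by site in the m6A peaks of mouse liver. The set held 10 genes chosen by name: *Acly*, *Me1*, *Acaca*, *Acacb*, *Fasn*, *Elovl6*, *Scd1*, *Thrsp*, *Srebf1* and *Mlxipl*. A peak belonged to the set when the deposited lists gave it the name of one of these genes. By that rule, 16 of 15635 peaks in *Wtap* flox/flox livers, 14 of 19185 peaks in *Wtap*-HKO livers and 9 of 3870 peaks in the authors' deposited table of differences between the genotypes were examined.

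m6ARIP-seq sequences the RNA fragments pulled down by an antibody to N6-methyladenosine (IP) along with the untreated starting fragments (input). Livers of C57BL/6 mice at 8 weeks of age on normal chow were used. *Wtap* encodes a regulatory subunit of the nuclear complex that writes m6A. Both groups carried floxed *Wtap* alleles. *Wtap* flox/flox mice had no Cre and kept *Wtap*, whereas *Wtap*-HKO mice were *Wtap* flox/flox with Alb-Cre. The albumin promoter drives that Cre in hepatocytes, so other liver cells kept *Wtap*. For each genotype, 2 replicates were made, each an IP and an input library from 300 μg of RNA of 5 pooled mice, which comes to 8 libraries.

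Each list combined the 2 replicates of a genotype. No value had an SD, no test across replicates was possible, and the depth of each library is unknown. Fold enrichment means IP over input at a peak, as a linear ratio without a unit. A peak marks enrichment and not the amount of a transcript, and the absence of a peak does not show that a transcript was unmethylated. In whole liver, fewer cells of a type and less RNA per cell cannot be told apart. Peaks were listed for 4 of 6 hepatocyte markers in each genotype (*Alb*, *Apoa1* and *Apob* in both, *Cyp2e1* only in *Wtap* flox/flox and *Ttr* only in *Wtap*-HKO). Of 8 markers of Kupffer cells, leukocytes, endothelial cells and stellate cells, 3 had a peak in *Wtap* flox/flox livers and 6 in *Wtap*-HKO. Their part in the results below was not tested. *Wtap* itself had 3 peaks in each list, which gives no measure of its deletion.

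De novo lipogenesis builds fatty acids from the carbon of carbohydrates. In hepatocytes, cytosolic acetyl-CoA is carboxylated to malonyl-CoA, fatty acid synthase joins these units to palmitate with electrons from NADPH, and palmitate is then elongated and desaturated. Insulin and glucose drive the genes of this pathway through the transcription factors SREBP-1c and ChREBP.

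Of the 10 genes, 7 had a peak in at least one genotype. *Acaca*, *Acacb*, *Fasn*, *Elovl6*, *Scd1* and *Mlxipl* had peaks in both lists. *Me1* had a peak in the *Wtap*-HKO list alone. *Acly*, *Thrsp* and *Srebf1* had none in either list, by name or by position. The peaks of these genes lay at 19 distinct sites, of which 11 were present in both lists, 5 in *Wtap* flox/flox alone and 3 in *Wtap*-HKO alone.

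Of the sites in genes with a RefSeq (GRCm38.p6) start window, 3 reached into the first transcribed bases, and each of these was listed in a single genotype. Their sequences are shown because each is a peak at a transcript start that one list holds and the other does not. The *Scd1* site at the 5′ end, listed in both genotypes, is not shown. Each is written 5′ to 3′ on the transcribed strand, with capitals marking GAC, the core of the sequence that m6A writers prefer.
*Elovl6*, *Wtap* flox/flox peak, chr3:129532415-129532435, + strand: caaggcattcatttcctccta
*Me1*, *Wtap*-HKO peak, chr9:86695865-86695893, - strand: ggccgcggcggcggcggctaggcgcgggc
*Mlxipl*, *Wtap*-HKO peak, chr5:135106900-135106929, + strand: gagagttggcGACaatagtggccatggcgc

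The *Elovl6* and *Me1* stretches are the parts of the peaks (21 and 29 nt) that lie within the first 50 transcribed bases. The *Mlxipl* stretch is the first 30 of 41 such bases. GAC was present once in the *Mlxipl* stretch and not in the other two. The longer form GGAC was in none of them. On the transcribed strand, GGAC was found in 18.9% and GAC, which GGAC contains, in 48.1% of the 32851 RefSeq start windows of 50 transcribed bases. A match of letters is a description and not a methylated site.

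The supply of acetyl-CoA and NADPH was examined first. *Acly*, the ATP citrate lyase that makes cytosolic acetyl-CoA (chr11:100476352-100528000, - strand), had no peak in either genotype. *Me1*, the cytosolic malic enzyme that yields NADPH (ENSMUSG00000032418, chr9:86581363-86695914, - strand), had 1 peak in *Wtap*-HKO at chr9:86695774-86695893, 21 nt from the 5′ end of the gene. Its fold enrichment was 2.94, at percentile 15.3 of that list, with a false discovery rate in the authors' deposited list of 3.9e-07. No differential peak was listed for either gene.

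*Acaca* encodes acetyl-CoA carboxylase 1, the cytosolic enzyme whose malonyl-CoA feeds fatty acid synthesis (ENSMUSG00000020532, chr11:84129635-84401651, + strand). Its 3 peaks in *Wtap* flox/flox all lay in the last 1918 nt of the gene, and the 3 matching peaks of *Wtap*-HKO were all lower. At chr11:84399734-84400243, fold enrichment was 21.1 in *Wtap* flox/flox livers and 4.43 in *Wtap*-HKO, a log2 ratio of -2.25. This was the highest peak of the set in *Wtap* flox/flox, at percentile 93.3 of that list, whereas in *Wtap*-HKO it stood at percentile 35.0. At chr11:84400902-84401202, the values were 4.74 and 1.95 (log2 ratio -1.28). At chr11:84401381-84401651, which ends at the last base of the gene, they were 4.21 and 2.05 (log2 ratio -1.04).

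In the authors' deposited table of differences, all 3 *Acaca* sites fell in *Wtap*-HKO livers. The log2 fold changes were -0.88 (p = 3.2e-13), -1.15 (p = 5.0e-22) and -0.80 (p = 3.2e-11) in the same order, in the authors' deposited values. The order of the sites was therefore not the same on both measures. The first site had the lowest ratio of the list values but not the lowest deposited fold change, and its drop came to 0.21 of the *Wtap* flox/flox level by the lists and 0.543 by the deposited fold change. The peak outlines differed too, with 540 exonic nt in the table of differences, 510 nt in the *Wtap* flox/flox list and 480 nt in the *Wtap*-HKO list.

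A further *Acaca* peak was listed in *Wtap*-HKO alone, at chr11:84179851-84193094. It joined 3 exonic blocks of 76, 59 and 16 nt across introns, 20.9% of the way along the gene. Its fold enrichment was 5.29 and its false discovery rate in the authors' deposited list was 1.2e-05, and no differential peak overlapped it. That rate was above the stricter limit of 1e-05 that was used as an alternative. The peak lay upstream of the 1 *Acaca* start in the RefSeq start windows (84195438), and the lists do not tell transcripts of *Acaca* apart. *Acaca* thus had peaks that were lower at the 3′ end and a peak nearer the 5′ end that appeared in *Wtap*-HKO alone.

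*Acacb* encodes acetyl-CoA carboxylase 2, the mitochondrial form whose malonyl-CoA restrains fatty acid oxidation (ENSMUSG00000042010, chr5:114146321-114250761, + strand). It had 3 peaks in *Wtap* flox/flox livers and 1 in *Wtap*-HKO. The shared peak had a value of 3.36 in *Wtap* flox/flox livers (chr5:114250193-114250582) and 2.44 in *Wtap*-HKO (chr5:114250432-114250641), a log2 ratio of -0.46. The outlines of 390 and 210 exonic nt shared 151 nt, so the 2 values were not taken over the same bases. The neighbouring peak at chr5:114249714-114249953 had 5.55 in *Wtap* flox/flox and was not listed in *Wtap*-HKO livers. In the authors' deposited table, this region fell by 1.80 on the log2 scale (p = 6.3e-27), the largest deposited change among the 9 differential peaks of the set. The remaining *Acacb* peak was listed in *Wtap* flox/flox alone at chr5:114165756-114165936, 238 nt downstream of a RefSeq start, with a fold enrichment of 3.05 and no differential peak. No *Acacb* site was higher in *Wtap*-HKO.

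*Fasn* encodes fatty acid synthase, which assembles palmitate (ENSMUSG00000025153, chr11:120805958-120825166, - strand). It had 2 peaks in each genotype, at the same 2 sites, and the ratios at these sites had opposite signs, with no differential call. The peak near the 3′ end had identical outlines in both lists (chr11:120807076-120807255), with fold enrichment at 3.74 in *Wtap* flox/flox livers and 2.9 in *Wtap*-HKO (log2 ratio -0.37). The peak near the 5′ end, 1858 nt from the end of the gene span, had 2.85 in *Wtap* flox/flox (chr11:120822845-120823308) and 6.7 in *Wtap*-HKO (chr11:120822755-120823308). That log2 ratio of 1.23 was the highest of the set, and 90.1% of all sites had a lower ratio. The peak covered 91 exonic nt in *Wtap* flox/flox and 181 nt in *Wtap*-HKO, so the 2 values were not taken over the same bases.

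The plot of all 19 sites sets both genotypes side by side.

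**Figure D1:**
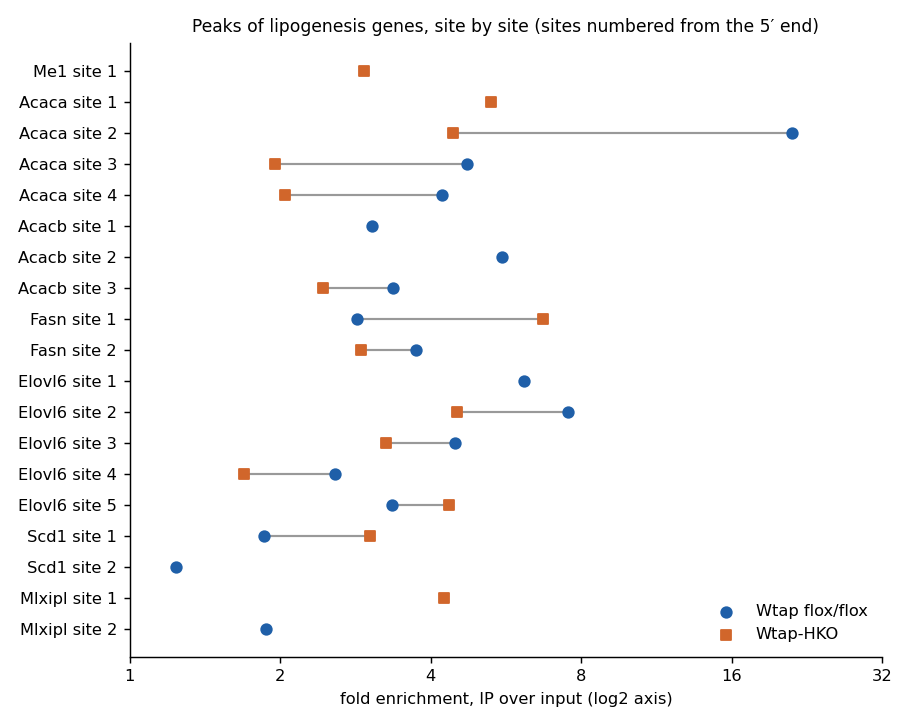
Fold enrichment (IP over input, log2 axis) at each of the 19 sites of lipogenesis genes, with sites numbered from the 5′ end of the gene; circles are *Wtap* flox/flox, squares are *Wtap*-HKO, and a line joins the values of a site listed in both. The squares lie to the left of the circles at 8 of 11 joined sites, and the longest line is *Acaca* site 2, from 21.1 to 4.43.

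*Elovl6*, the elongase that takes palmitate to stearate (ENSMUSG00000041220, chr3:129532386-129638495, + strand), had 5 peaks in *Wtap* flox/flox livers and 4 in *Wtap*-HKO. The 4 shared peaks lay together between 95.0% and 96.8% of the way along the gene. From 5′ to 3′, fold enrichment was 7.52 in *Wtap* flox/flox livers and 4.52 in *Wtap*-HKO at the first, 4.47 and 3.25 at the second, 2.57 and 1.69 at the third, and 3.35 and 4.35 at the fourth. The first 3 of these sites were lower in *Wtap*-HKO (log2 ratios -0.73, -0.46 and -0.60) and the fourth was higher (0.38), so neighbouring peaks of this gene had ratios of both signs.

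In the authors' deposited table, *Elovl6* fell at 2 sites, with log2 fold changes of -0.82 over the first (p = 1.4e-04) and -0.67 over the third (p = 7.8e-04). These were the least extreme p-values among the 9 differential peaks of the set. The fifth *Wtap* flox/flox peak, at chr3:129532415-129532564, lay 29 nt from the 5′ end of the gene. It had a fold enrichment of 6.15, with a false discovery rate in the authors' deposited list of 8.5e-08, and was not listed in *Wtap*-HKO. The 3 lists hold no difference call there.

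*Scd1* encodes the hepatic stearoyl-CoA desaturase, which places the double bond in oleate and palmitoleate (ENSMUSG00000037071, chr19:44394450-44407709, - strand). Its site at the 5′ end rose and its site farther downstream fell in the deposited calls. At the 5′ end, fold enrichment was 1.86 in *Wtap* flox/flox (chr19:44407440-44407679) and 3.03 in *Wtap*-HKO (chr19:44406756-44407709), a log2 ratio of 0.70. The authors' deposited table gave a rise of 0.61 on the log2 scale there (p = 7.9e-42), the one differential peak of the set that was higher in *Wtap*-HKO. Toward the 3′ end, at chr19:44397943-44398092, a peak with a fold enrichment of 1.24 was listed in *Wtap* flox/flox alone. That value was the lowest of the set, at percentile 0.0352 of its list. In the authors' deposited table, the site fell by 0.49 on the log2 scale (p = 6.3e-28), so a small change carried a very low p-value.

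The regulators were examined last. *Srebf1* encodes SREBP-1, whose 1c form drives the insulin response of this pathway (chr11:60199084-60224186, - strand), and *Thrsp* encodes a small nuclear protein, Spot 14, that responds to thyroid hormone and carbohydrate (chr7:97412933-97417550, - strand). Neither had a peak. *Mlxipl* encodes ChREBP, the transcription factor that answers to glucose (ENSMUSG00000005373, chr5:135089890-135139768, + strand). It had 1 peak in each genotype, and these lay at different places. In *Wtap* flox/flox the peak lay at chr5:135137574-135137694, 95.7% of the way along the gene, with a fold enrichment of 1.87. This site was not listed in *Wtap*-HKO, and it fell by 1.30 (log2) in the authors' deposited table (p = 2.5e-41). In *Wtap*-HKO the peak lay at chr5:135106900-135107049, with a fold enrichment of 4.26 and no differential call. That peak began 9 nt downstream of the second of the *Mlxipl* starts that RefSeq lists, at 135106891, which is 17001 nt downstream of the first, at 135089890. *Mlxipl* is known to be transcribed from alternative starts, and the lists do not tell their transcripts apart.

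Across the set, peaks were lower than the typical peak in the lists. Median fold enrichment was 3.55 in *Wtap* flox/flox (range 1.24 to 21.1) beside 5.51 over all peaks, and 3.14 in *Wtap*-HKO (range 1.69 to 6.7) beside 5.93. The peaks were also shorter, with a median of 240 exonic nt beside 269 over all peaks in *Wtap* flox/flox, and 181 beside 240 in *Wtap*-HKO. In all, 3934 exonic nt of these genes lay under a peak in *Wtap* flox/flox livers and 2944 in *Wtap*-HKO. Over all peaks, the sums went the other way, with 5235309 nt in *Wtap* flox/flox and 6254608 nt in *Wtap*-HKO.

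Of the 16 *Wtap* flox/flox peaks, 11 (68.8%) overlapped a *Wtap*-HKO peak by 1 exonic base or more, beside 80.1% of all *Wtap* flox/flox peaks. In the other direction, 11 of 14 *Wtap*-HKO peaks (78.6%) shared a base with a *Wtap* flox/flox peak, beside 64.7% of all. The full *Wtap*-HKO list was the longer one, whereas the set had fewer peaks in the *Wtap*-HKO list than in the other.

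At the 11 shared sites, fold enrichment was lower in *Wtap*-HKO at 8 (72.7%) and higher at 3 (27.3%), where over all 10499 sites matched 1 to 1 the shares were 49.4% and 50.4%. The median log2 ratio was -0.46 beside 0.01 over all sites. The sites came from 5 genes, and neighbouring peaks of a gene share its fragments and libraries, so they are not independent. The 3 sites that were higher were the 5′ sites of *Fasn* and *Scd1* and the last of the *Elovl6* cluster. The 8 that were lower all lay in the final 10% of the gene span, in *Acaca*, *Acacb*, *Fasn* and *Elovl6*. The higher *Elovl6* site lay there too, so among the shared sites only the 5′ sites of *Fasn* and *Scd1* lay elsewhere. The share of lower sites among all sites in that part of the span is not given here.

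**Figure D2:**
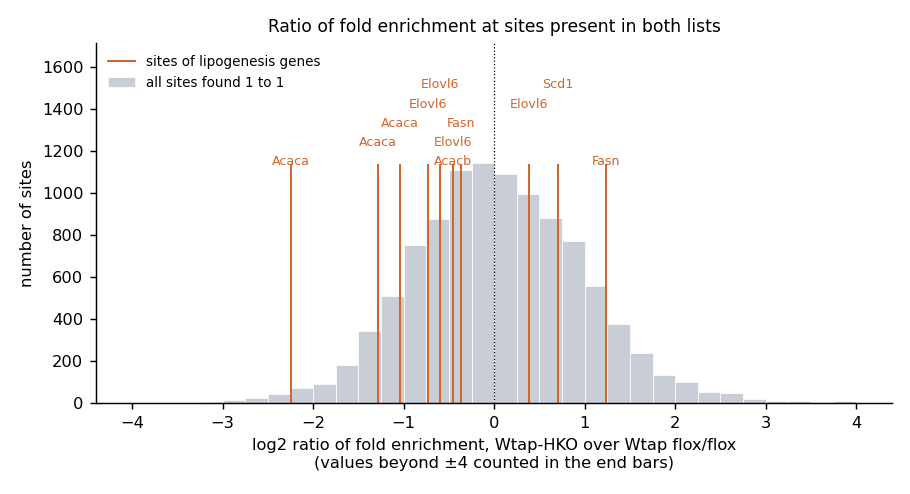
Number of sites by log2 ratio of fold enrichment, *Wtap*-HKO over *Wtap* flox/flox, for all 10499 sites matched 1 to 1 (grey bars), with a line at each of the 11 sites of lipogenesis genes. The 3 *Acaca* lines lie to the left of the others, from -2.25 to -1.04, and the *Fasn* 5′ site lies farthest right at 1.23.

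The strength of each peak over input was compared as well. The IP-over-input p was less extreme in *Wtap*-HKO at 9 of 11 sites (81.8%), beside 40.9% of all sites. The exceptions were the 5′ sites of *Scd1* and *Fasn*. At the *Scd1* site, the log10 p in the authors' deposited lists was -118 in *Wtap* flox/flox livers and -343 in *Wtap*-HKO, and at the *Fasn* 5′ site it was -20.8 and -34.2. At the *Fasn* 3′ site it was -101 and -15.5, although the outline of that peak was the same in both lists. Such p-values move with read depth and with the level of the transcript, neither of which the lists hold. From RNA-seq and qPCR of *Wtap*-HKO livers, the paper reported lower mRNA of *Fasn*, *Scd1*, *Srebf1* and *Mlxipl*. The part of transcript level in the peak values was not tested. Peak outlines were shorter in *Wtap*-HKO at 8 of 11 sites, longer at 2 and equal at 1, whereas 42.2% of all sites were shorter.

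**Figure D3:**
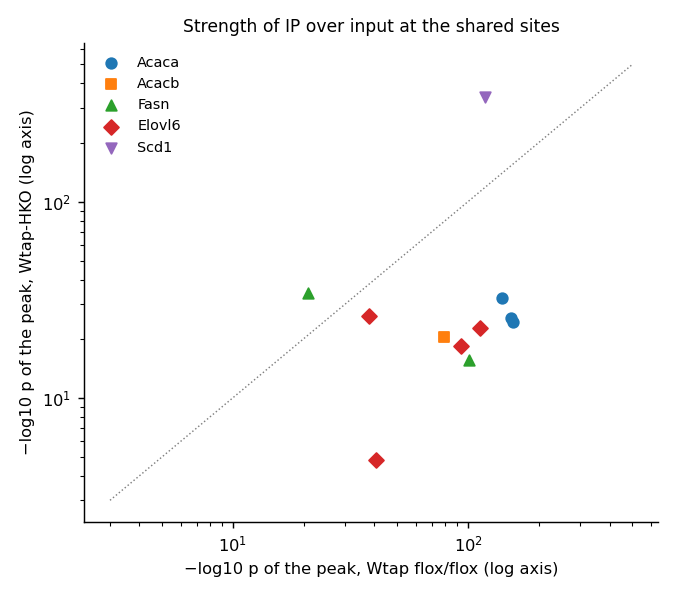
Minus log10 p of IP over input at the 11 shared sites in *Wtap* flox/flox (x, log axis) and *Wtap*-HKO (y, log axis), one symbol per gene, with a dotted line of equal values. Of these points, 9 lie under the line, and the *Scd1* 5′ site and the *Fasn* 5′ site lie above it.

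The authors' deposited table of differences, with calls at any fold change, held 9 peaks from 5 genes of the set. Of these, 8 were lower and 1 was higher in *Wtap*-HKO, beside 2314 lower and 1556 higher in the whole table. The median log2 fold change was -0.82 beside -0.69 over the table. A lower differential peak lay over 8 of 16 *Wtap* flox/flox peaks (50%), beside 15.2% of all such peaks. At an absolute log2 fold change over 1, this was 3 of 16 (18.8%) beside 7.73%, from *Acaca*, *Acacb* and *Mlxipl*. A higher differential peak lay over 1 of 14 *Wtap*-HKO peaks (7.14%), beside 8.52% of all. By gene, 5 of 7 genes with a peak (71.4%) had a lower differential peak, beside 16.8% of 11558 genes, and 1 of 7 (14.3%) had a higher one, beside 12.6%. *Fasn* and *Me1* had none. Of the 9 differential peaks, 3 were from *Acaca*, and peaks of the same gene are not independent. The shares over all peaks and genes were not matched for transcript level, with which such calls can move. The shares by gene were not matched for peaks per gene either, and a gene with more peaks has more chances of a call. In *Wtap* flox/flox, the 16 peaks of the set came from 6 genes, beside 15635 peaks from 9020 genes in the whole list.

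**Figure D4:**
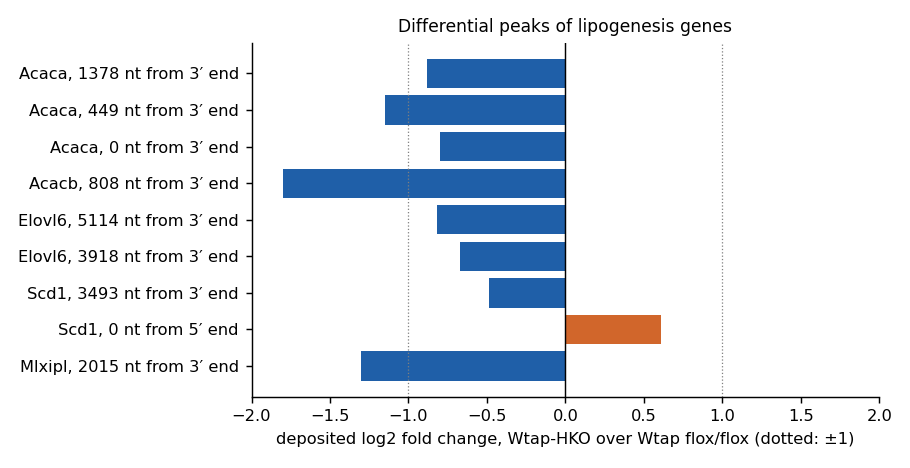
Log2 fold change (*Wtap*-HKO over *Wtap* flox/flox) in the authors' deposited table for the 9 differential peaks of lipogenesis genes, each named with its distance to the nearer end of the gene; dotted lines stand at -1 and 1. The bars reach from -1.80 (*Acacb*) to -0.49 (*Scd1*, 3493 nt from its 3′ end), and the *Scd1* peak at the 5′ end alone points to the right, at 0.61.

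The peaks gathered toward the 3′ end. In *Wtap* flox/flox, 11 of 16 peaks (68.8%) had their midpoint in the final 10% of the gene span, beside 41.9% of all placed peaks, and in *Wtap*-HKO 9 of 14 (64.3%) did, beside 35.4%. Within 200 nt of the 5′ end of the gene there were 2 peaks in each genotype, from *Elovl6* and *Scd1* in *Wtap* flox/flox and from *Me1* and *Scd1* in *Wtap*-HKO. Over all placed peaks, 10.9% lay there in *Wtap* flox/flox livers and 18.5% in *Wtap*-HKO. Spans include introns, so a place in the final 10% does not by itself show a place in the 3′ UTR.

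**Figure D5:**
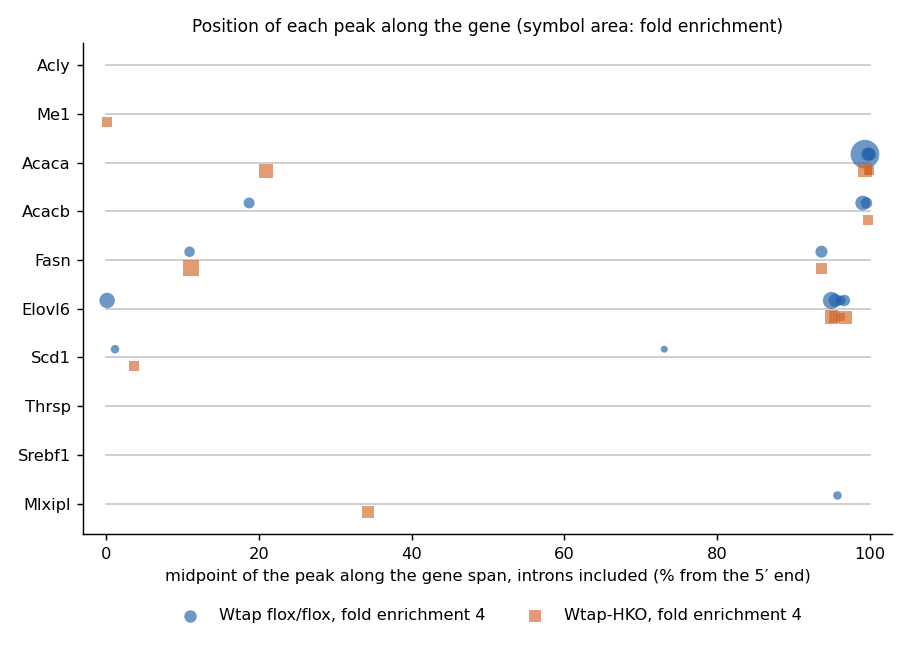
Midpoint of each peak along the gene span (0% is the 5′ end, 100% the 3′ end, introns included) for the 10 genes, circles for *Wtap* flox/flox and squares for *Wtap*-HKO, with symbol area in proportion to fold enrichment. The cluster at the right holds 11 circles and 9 squares, and *Acly*, *Thrsp* and *Srebf1* carry no symbol.

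The neighbouring pathway was read from a list of 54 further genes of substrate supply, elongation, esterification and control. Of these, 38 had a peak in *Wtap* flox/flox livers and 37 in *Wtap*-HKO. Of the 44 genes with a peak in either list, 11 had a lower differential peak and 5 a higher one. Over all 11558 genes with a peak, the shares were 16.8% and 12.6%. *Elovl1*, an elongase of very long chains, was in both counts. At their 35 sites matched 1 to 1, fold enrichment was lower in *Wtap*-HKO at 21 and higher at 14, beside 49.4% and 50.4% of all sites. The median log2 ratio was -0.12 beside -0.46 at the sites of the 10 lipogenesis genes. The difference between the 2 lists of genes was not tested.

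Past an absolute log2 fold change of 1, *Mlycd*, *Agpat2*, *Lpin2* and *Fads1* fell in the authors' deposited table. *Mlycd*, the decarboxylase that removes malonyl-CoA, fell by 1.41 (p = 1.0e-65) in the authors' deposited table and carried a peak of 4.68 in *Wtap*-HKO alone, 26 nt from its 5′ end. *Agpat2* and *Lpin2*, enzymes of glycerolipid synthesis, had log2 fold changes of -1.27 and -1.17, and *Fads1*, a desaturase of polyunsaturated fatty acids, had -1.06. In *Mlycd*, *Elovl1*, *Acaca* and *Mlxipl*, a downstream peak was lost or lower, and a peak nearer the 5′ end was listed in *Wtap*-HKO alone. For *Elovl1*, the downstream peak had 7.4 in *Wtap* flox/flox livers beside 3.64 in *Wtap*-HKO, with a deposited log2 fold change of -0.8. The *Elovl1* peak listed in *Wtap*-HKO alone had 4.17 and lay 23.9% of the way along the gene. *Elovl6* and *Acacb* showed another order, with the peak nearest the 5′ end listed in *Wtap* flox/flox alone. *Agpat2*, *Lpin2* and *Fads1* had no peak listed in *Wtap*-HKO alone. The arrangement of *Mlycd*, *Elovl1*, *Acaca* and *Mlxipl* was noticed in the values and was not tested, and its share among all genes was not counted. Of all placed peaks, the first 10% of the gene span held 20.9% of the *Wtap*-HKO list, beside 13.7% of the *Wtap* flox/flox list.

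Those that rose past 1 were *Elovl1* (1.63), *Mlx* (1.51), *Acsl5* (1.27) and *Khk* (1.08). *Mlx*, the dimer partner of ChREBP, had a single peak, listed in *Wtap*-HKO alone with a fold enrichment of 4.93, and its p was 4.0e-04 in the authors' deposited table. *Khk*, the ketohexokinase that starts fructose breakdown, likewise had a peak in *Wtap*-HKO alone (4.94), 354 nt from its 5′ end. *Acsl5*, an acyl-CoA synthetase, had 5.29 in the *Wtap* flox/flox list beside 8.13 in the *Wtap*-HKO list at a peak 77 nt from its 5′ end with the same outline in both lists. The midpoints of these 4 peaks lay no farther than 23.9% along the gene span. The share of all higher differential peaks in that part of the span was not counted, so this is not shown to be particular to these genes.

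*Mlxip*, a ChREBP paralogue, had the most peaks of the 54 genes in the *Wtap* flox/flox list, while over both lists together *Mbtps1* and *Rxra*, with 3 peaks in each list, had as many. *Mlxip* had 5 in *Wtap* flox/flox, with fold enrichment from 3.47 to 12.2, and 1 in *Wtap*-HKO, with a fold enrichment of 12. The *Wtap*-HKO peak covered 1888 exonic nt and overlapped 4 of the 5 peaks of *Wtap* flox/flox, and the fifth (fold enrichment 3.7) had no counterpart in *Wtap*-HKO. The region rose by 0.82 (log2) in the authors' deposited table (p = 8.1e-09). The count of peaks was thus lower in *Wtap*-HKO while the deposited fold change of the region was above 0.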

How the data were processed

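m6ARIP-seq was performed on liver RNA, with 2 IP and 2 input libraries per genotype. The authors trimmed 150 bp reads with fastp 0.19.11, aligned them to GRCm38 with BWA 0.7.12, called peaks with exomePeak 2.16.0 and searched motifs with HOMER 4.9.1. Fold enrichment was deposited as the ratio, on a linear scale, of IP to input. The deposited p-values and false discovery rates are log10 scores. The difference between genotypes was deposited as a log2 fold change at p under 0.01. The authors' fold changes and p-values of that difference are printed as deposited, since no list allows a second fit. Replicates were already combined, by a rule not given in the sources used here. No list holds reads, so depth and the smallest detectable enrichment are unknown.

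Counting used pandas 2.3.3 and numpy 2.4.6 under Python 3.11.15, and plots used matplotlib 3.10.9. A peak counted as shared if it overlapped a same-strand peak of the other list by 1 exonic base or more, and fold enrichment was compared at sites matched 1 to 1. Starts are 1-based. Gene spans and start sequences came from RefSeq (GRCm38.p6), where 9 of 10 genes had a start window. All 10 genes and their peaks are named. Of 54 related genes, those past an absolute log2 fold change of 1 and the gene with the most peaks (taken in the *Wtap* flox/flox list, since the rule named no list) are named. One of the related genes is not reported here. The members and lists were chosen with earlier results of these data known. The matching of peaks was run on simulated lists in which each peak either kept its outline or was moved far away. That run did not cover outlines that differ between lists, so it does not show how well such sites were matched. The alternatives were other limits on fold enrichment, false discovery rate, overlap, fold change and distance to a gene end, and other scalings.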

Additional observations from a re-analysis of the deposited data

How the results depend on the processing

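The lists combine the replicates, so leaving out a replicate was not possible. No paired analysis was possible because no list holds values per replicate. Of 41 alternative values of the main counts and medians, 35 stayed within 1.5 times the reported count or within the limit set for a median, and no result reversed. The median log2 ratio of the 11 shared sites was -0.46. It was -0.47 after the median of all sites was subtracted, and -0.53 when a shared site needed at least 50% of the exonic bases of both peaks. Among differential calls of the authors' deposited table, 3 were lower and 0 higher at an absolute log2 fold change over 1, where 8 were lower and 1 was higher at any fold change. Peaks at the 3′ end numbered 2 in each genotype within 200 nt of the end, but 11 in *Wtap* flox/flox livers and 9 in *Wtap*-HKO livers in the final 10% of the gene span. The wider limit takes in more of each gene by its construction. Each of the 11 sites kept its direction after centring and by percentile rank, although 22 values of single sites moved. Depth cannot be read from the lists, and they do not give the enrichment of a site in the genotype where it is not listed.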
